A study of Mus musculus with 5 samples.

Results

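Polycomb proteins keep developmental genes silent through histone marks. Polycomb repressive complex 2 (PRC2) methylates histone H3 at lysine 27, the mark written H3K27me3, and Polycomb repressive complex 1 (PRC1) attaches ubiquitin to histone H2A. KDM6 enzymes take the methyl groups off again. In mouse oocytes and early embryos these complexes are supplied largely by the mother, and maternal H3K27me3 marks the silent allele of a small set of imprinted genes. The 10 genes described here were chosen by name as rows of the deposited expression table, not by their values: Ezh1, Ezh2, Eed, Suz12 and Jarid2 of PRC2, Rnf2, Ring1, Pcgf1 and Pcgf6 of PRC1, and the demethylase gene Kdm6b. All 10 were among the 32285 gene symbols of the table, and 9 of them passed the filter for testing.

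The libraries came from mouse embryos at the 2-cell stage. Eggs of superovulated females aged 6 to 9 weeks were fertilised in vitro for about 6 h with sperm of males aged 12 to 16 weeks, and the resulting zygotes were then kept in KSOM medium for 24 h. The PNMC group, with 3 libraries, received 25 nM PNMC, an abbreviation that the labels do not spell out, and the control group, with 2 libraries, received an equal volume of DMSO, the solvent. The labels name no strain or genotype, and they do not say how many embryos a library held or whether libraries came from separate cultures. P-values thus cover the spread among these 5 libraries alone, and that spread may be technical. Each library is bulk RNA of whole embryos, so fewer embryos and less RNA per embryo cannot be told apart, and neither can stored maternal and newly made transcripts.

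Values are normalised expression levels in a unit that is not stated. They summed to between 446010 and 454548 per library, and their depth in reads is unknown. Control library 2 listed 18595 genes above 0, against 17408 to 17635 in the other libraries. All 10 genes fixed beforehand as markers of these embryos were detected, with a summed level of 7420 and 7610 in controls and 7480 to 8020 after PNMC. Btg4 (3400 to 3919) and Dppa3 (3053 to 3476) made up most of that sum. Both are maternal transcripts that eggs already hold, so the sum does not show the stage. Lower genes of the list weigh little in it, such as Zscan4d (135.3 to 199.6) and Zar1 (6.161 to 28.87), the latter also maternal. The 9 cumulus cell markers summed to 1.6 and 7.35 in controls and to between 1.88 and 2.9 after PNMC, and 4 of them were at 0 in every library. The 6 sperm markers summed to between 4.22 and 6.89, with 2 at 0 throughout, and the 4 blood markers to between 9.62 and 21.1. Control library 2 was highest for the cumulus and blood markers. The part of these markers in the results below was not tested.

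The promoters of 3 genes that bracket the levels described below, and that of Suz12, are shown in RefSeq's GRCm38.p6 sequence, each from 250 bases before the annotated start to 20 bases past it. The deposited values were made on another build, GRCm39, per the submitters' processing notes. Ezh2 had one of the highest levels of the set, Ring1 was at 0, and Ezhip encodes the natural inhibitor of PRC2. Suz12 is shown since Ezh2 and Suz12 were the members whose window held an E2F motif. E2F factors switch on genes of the dividing cell, and Ezh2 is a known E2F target. Capitals mark that motif, searched on both strands as TTTCCCGC, TTTGGCGC, TTTCGCGC or TTTGCCGC.
Ezh2 (chr6:47595011-47595280, minus strand): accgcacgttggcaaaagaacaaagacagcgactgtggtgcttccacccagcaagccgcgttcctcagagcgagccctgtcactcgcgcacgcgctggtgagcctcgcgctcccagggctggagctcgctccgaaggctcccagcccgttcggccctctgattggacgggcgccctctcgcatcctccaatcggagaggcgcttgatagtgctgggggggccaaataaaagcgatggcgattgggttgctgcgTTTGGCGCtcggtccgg
Suz12 (chr11:79992856-79993125, plus strand): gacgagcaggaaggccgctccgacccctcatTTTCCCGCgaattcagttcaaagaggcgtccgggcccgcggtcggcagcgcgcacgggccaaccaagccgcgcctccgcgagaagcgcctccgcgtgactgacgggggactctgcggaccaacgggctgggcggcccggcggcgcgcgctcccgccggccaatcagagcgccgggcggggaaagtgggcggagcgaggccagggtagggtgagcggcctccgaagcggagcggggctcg
Ring1 (chr17:34024661-34024930, minus strand): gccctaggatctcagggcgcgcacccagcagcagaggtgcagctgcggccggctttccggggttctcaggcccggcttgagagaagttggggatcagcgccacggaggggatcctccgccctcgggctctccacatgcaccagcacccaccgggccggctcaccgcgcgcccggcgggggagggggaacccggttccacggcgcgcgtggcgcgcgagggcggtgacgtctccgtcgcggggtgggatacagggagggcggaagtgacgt
Ezhip (chrX:6083401-6083670, minus strand): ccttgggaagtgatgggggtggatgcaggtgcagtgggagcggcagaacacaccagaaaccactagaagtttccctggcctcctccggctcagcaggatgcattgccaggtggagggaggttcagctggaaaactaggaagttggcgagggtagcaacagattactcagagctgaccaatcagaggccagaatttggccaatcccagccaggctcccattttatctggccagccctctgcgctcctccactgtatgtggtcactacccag

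In RefSeq's full window of 300 bases, 50 of them past the start, 8 of the 10 genes had 9 windows, since Jarid2 has 2 annotated starts. The E2F motif stood in 2 of those 9 windows, at the 4th base past the start in Ezh2 and at position -219, before the start, in Suz12. It stood in 2.26% of the 32851 windows of all genes. CpG dinucleotides, the sites of DNA methylation in mammals, numbered 17 to 41 in the members' windows. The median over all windows was 7. Ring1 had 37, more than 94.4% of all windows, although its transcript was at 0 in every library. Ezhip had 5 and Ezh2 had 31. A match describes letters in a window, not binding by a factor.

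The catalytic subunit Ezh2 was among the most abundant members and differed little between libraries. Ezh2, the main H3K27 methyltransferase, was at 186.9 and 187.2 in controls and at 176.8, 193.2 and 165.3 after PNMC. The PNMC values lay on either side of the controls. Its log2 difference, PNMC minus control on log2(value + 1), was -0.07 (95% interval -0.35 to 0.21, limma adjusted p = 0.993). A change beyond 1.15-fold higher or below 0.786 of the control level lay outside that interval. Ezh1, the paralogue that predominates in non-dividing cells of other tissues, was at 28.59 and 20.15 in controls and at 16.78, 20.38 and 27.22 after PNMC. The groups overlapped in part, with control library 1 and PNMC library 3 high and PNMC library 1 below both controls, and the log2 difference was -0.18 (95% interval -0.71 to 0.35, limma adjusted p = 0.993).

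The 2 catalytic genes did not follow each other from library to library. The ratio of Ezh2 to Ezh1 was 6.53 and 9.29 in controls and 10.5, 9.48 and 6.07 after PNMC, so the exposed libraries held both its highest and its lowest value. Since the values' unit may or may not be divided by transcript length, the size of the ratio is that of the table's unit. Its variation between libraries does not depend on length.

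The partners that PRC2 needs for activity differed from each other in level. Eed, which reads H3K27me3 and stimulates the enzyme, was at 61.27 and 78.15 in controls and at 69.14, 62.55 and 55.47 after PNMC. PNMC library 3 was the lowest of the 5 and control library 2 the highest, and the groups overlapped (log2 difference -0.15, 95% interval -0.53 to 0.22, limma adjusted p = 0.993). Suz12, the scaffold of the complex, was at 16.58 and 13.03 in controls and at 13.85, 16.51 and 14.68 after PNMC. All 3 PNMC values fell between the controls, with a log2 difference of 0.03 (95% interval -0.47 to 0.52, limma adjusted p = 0.993). The histone-binding subunits Rbbp4 and Rbbp7, shared with other chromatin complexes, are not among the 10. Rbbp7 was at 287.3 and 351.7 in controls and at 396.6, 360.6 and 376.6 after PNMC, without overlap (log2 difference 0.25, 95% interval -0.01 to 0.51, limma adjusted p = 0.986).

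Jarid2 was the one member whose groups did not overlap. It encodes an accessory subunit that helps bring PRC2 to chromatin. Jarid2 was at 20.06 and 22.1 in controls and at 19.6, 15.91 and 17.38 after PNMC, so every PNMC library lay below both controls, PNMC library 1 only narrowly. Controls averaged 21.08 ± 1.44 (SD, n = 2) and PNMC libraries 17.63 ± 1.86 (SD, n = 3). The log2 difference was -0.25 (SE 0.212, 95% interval -0.71 to 0.21) and did not pass limma's test (adjusted p = 0.993). Among the 9 tested members 1 was entirely lower and 0 entirely higher. Among all 12734 genes tested, 11.9% were entirely lower and 7.97% entirely higher.

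**Figure D1:**
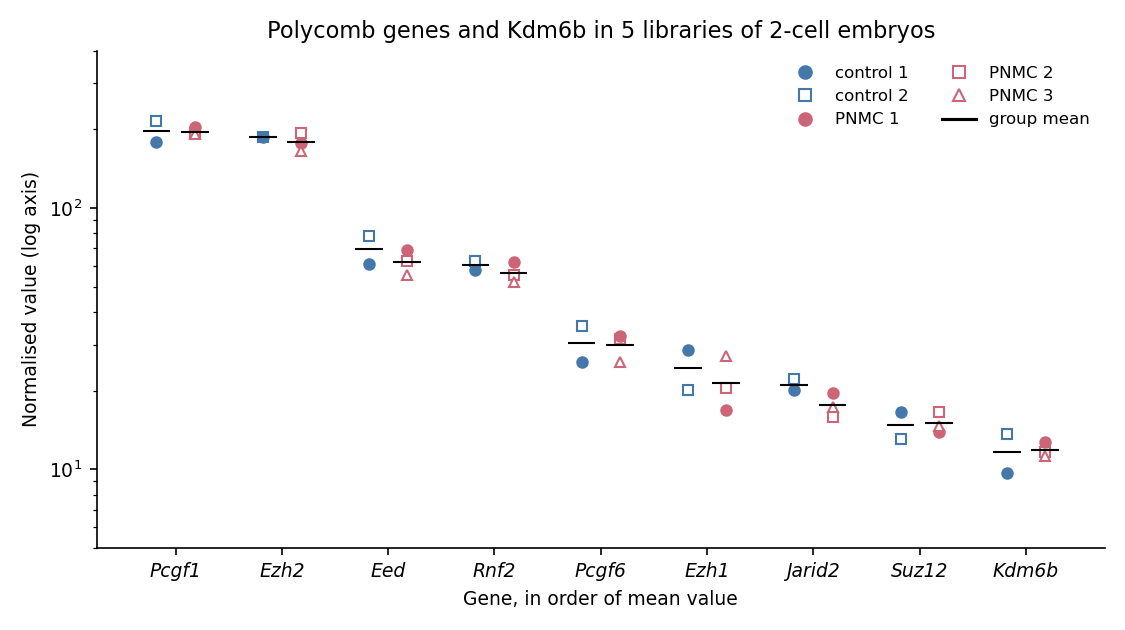
Normalised value (log axis) of 9 members in each library, ordered by mean value; points are libraries, filled or open by number, and black lines are group means. Pcgf1 and Ezh2 lie near 200 and Kdm6b near 10, and only Jarid2 has its PNMC points all below both control points; Ring1, at 0 in every library, cannot be drawn on a log axis.

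The PRC1 genes held the highest and the lowest values of the set. Rnf2, the E3 ligase also called RING1B, was at 57.77 and 62.91 in controls and at 61.9, 55.22 and 51.93 after PNMC. The groups overlapped, with a log2 difference of -0.10 (95% interval -0.45 to 0.26, limma adjusted p = 0.993). Rnf2 overlaps the tRNA methyltransferase gene Trmt1l on the opposite strand, and Smart-seq2 keeps no strand, so reads of the overlap cannot be told apart. Trmt1l was far lower, at 8.73 and 7.71 in controls and at 4.96, 2.31 and 4.34 after PNMC.

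Ring1, the paralogue of Rnf2 known to overlap with it in function, was listed at 0 in all 5 libraries. A value of exactly 0 in this table may be an undetected gene or a failed estimate. Of the 21476 symbols in this table that GENCODE M21 calls protein-coding, 4083 were also at 0 throughout. The longest Ring1 coding transcript of GENCODE M21 shares none of its stretches of 50 bases with transcripts of other genes (0%), and no annotated gene overlaps it. No fold can be given for Ring1, and it was not tested.

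PCGF proteins pair with the RING ligases and decide which PRC1 complex forms. Pcgf1, of the variant complex that binds CpG islands through KDM2B, had the highest mean value of the 10, at 179.3 and 216 in controls and 203.4, 193.7 and 191.6 after PNMC. All 3 PNMC values lay between the controls, and the log2 difference was -0.0046 (95% interval -0.29 to 0.28, limma adjusted p = 0.997). Of the stretches of 50 bases in its longest coding transcript, 31.3% also occur in the processed pseudogene Gm8930, so its value is uncertain to the extent that reads were shared. Pcgf6, of the variant complex known for silencing germline genes, was at 25.77 and 35.29 in controls and at 32.22, 31.41 and 25.81 after PNMC. Those values too lay within the range of the controls (log2 difference -0.02, 95% interval -0.47 to 0.42, limma adjusted p = 0.993).

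The H3K27 demethylase gene Kdm6b was the lowest member above 0. It was at 9.63 and 13.67 in controls and at 12.66, 11.64 and 11.23 after PNMC, with all PNMC values inside the control range. The log2 difference was 0.04 (95% interval -0.49 to 0.57, limma adjusted p = 0.993). The antisense gene Kdm6bos, which overlaps Kdm6b, was at 0 in every library. Kdm6a, the X-linked demethylase of the same family, was higher, at 69.28 and 62.09 in controls and at 62.62, 71.34 and 63.15 after PNMC. The ratio of Kdm6a to Kdm6b was 7.19 and 4.54 in controls and 4.94, 6.13 and 5.62 after PNMC, so the control libraries held both its extremes.

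Ordered by mean value in the table's unit, the members ran from Pcgf1 (196.8) through Ezh2 (181.9), Eed (65.32), Rnf2 (57.95), Pcgf6 (30.1), Ezh1 (22.63), Jarid2 (19.01) and Suz12 (14.93) to Kdm6b (11.77), with Ring1 at 0. Their ranges over the 5 libraries separated Ezh2 from Eed, Rnf2 from Pcgf6 and Kdm6b from Ring1. Each other pair of neighbours overlapped in range and was not separated by the spread between libraries. Whether values are already per length is not stated. Dividing them by the longest coding transcript of GENCODE M21 left the order the same except that Suz12 came before Jarid2. Among the genes tested, Pcgf1 stood at the percentile 97.5 of mean value, Ezh2 at 97.2, Eed at 90.2, and Kdm6b at 61.4.

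None of the 9 tested members differed between the groups by limma's test, where the background was 0% of all genes (0 of 12734 at an adjusted p under 0.05; 1 gene, which is no member, without PNMC library 1). At an unadjusted p under 0.05 there were 0 of the 9 members, against 4.99% of all genes, and the lowest unadjusted p of a member was 0.262. Mean log2 values were lower after PNMC in 7 members and higher in 2. Among all genes tested, 7247 were lower and 5487 higher. The members' median difference was -0.07, where all genes tested had a median of -0.05. After scaling each library to its median, 4 members were lower and 5 higher, and the members' median was 0.02 beside 0.03 for all genes.

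The intervals show how large a change these libraries still allow. All 9 intervals lay within 1 log2 unit in either direction, about a 2-fold change, as did 94.4% of the 5341 tested genes with a mean of at least 10, the range of levels to which the members belong. Within 0.5 log2 unit lay the intervals of 4 members, Ezh2, Rnf2, Pcgf1 and Pcgf6, where 29.9% of those genes did. The widest intervals were those of Kdm6b (1.07) and Ezh1 (1.05), and the narrowest those of Ezh2 and Pcgf1 (0.56 each).

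**Figure D2:**
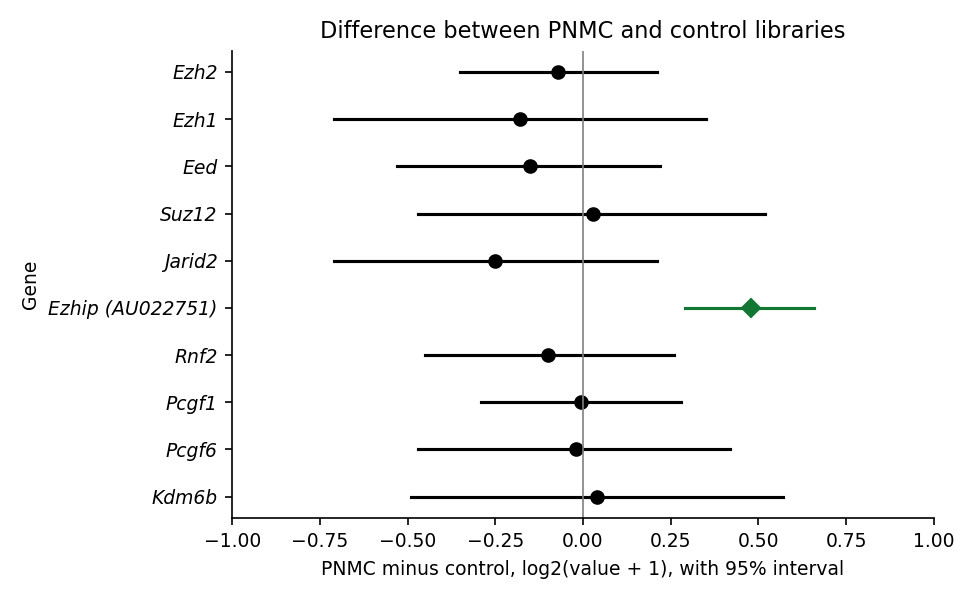
Difference of PNMC minus control on log2(value + 1), with limma's 95% interval, for the 9 tested members (circles) and for Ezhip (diamond). The interval of every member includes 0, as that of Ezh1, from -0.71 to 0.35, shows; that of Ezhip runs from 0.29 to 0.66, though its adjusted p was 0.206.

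Which library was highest and which lowest varied from gene to gene. Control library 2 had the highest value of 6 of the 9 members, Eed, Jarid2, Rnf2, Pcgf1, Pcgf6 and Kdm6b. Control library 1 had the lowest of 3, Pcgf1, Pcgf6 and Kdm6b, so those genes' extremes were both in controls. PNMC library 3 had the lowest of Ezh2, Eed and Rnf2, and 8 of the 9 members lay below their own centre there. Ezh1 went another way, with its highest values in control library 1 and PNMC library 3. Averaged over the members, the deviation was -0.01 in control library 1 and 0.09 in control library 2. After PNMC it was -0.01, -0.03 and -0.08. The median over the members was 0.14 in control library 2 and -0.14 in PNMC library 3. The median of all tested genes was 0.049 and -0.015 in those libraries. It too was highest in control library 2, the library that listed most genes.

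**Figure D3:**
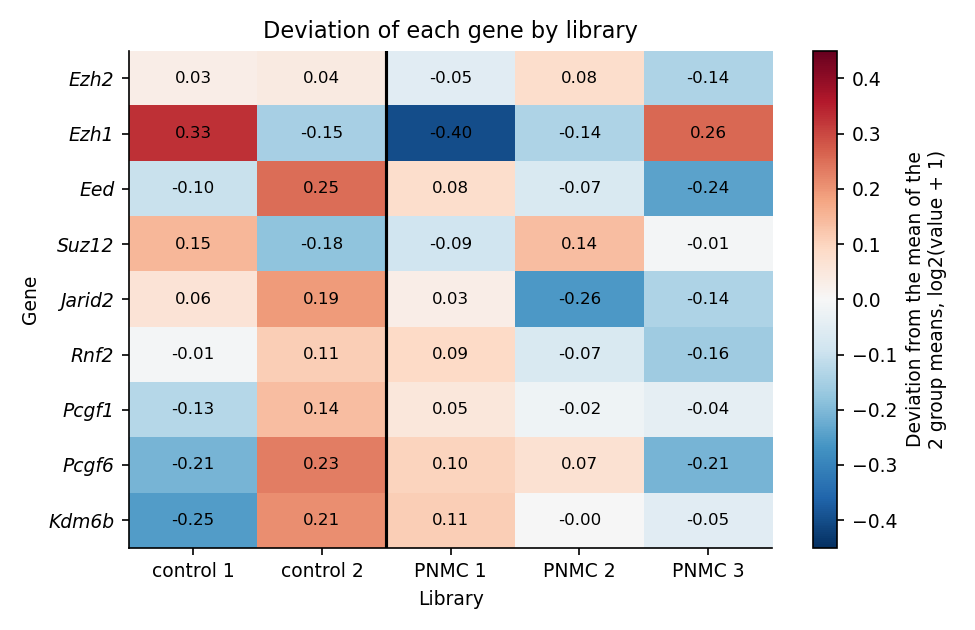
Deviation of each tested member from the mean of its 2 group means, on log2(value + 1), by library; red is above and blue below. Control library 2 is above in 7 of 9 genes and PNMC library 3 below in 8 of 9, while Ezh1 and Suz12 show a different order.

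Among the tested PRC2-related genes, the largest difference was that of a gene whose protein restrains PRC2. Ezhip, listed in the table under its synonym AU022751, encodes the EZH inhibitory protein, which blocks the enzyme with a stretch that resembles the H3 tail and is made mainly in germ cells. It was at 1745 and 1621 in controls and at 2344, 2216 and 2473 after PNMC. Every PNMC library lay above both controls, with a gap larger than the spread within either group, at 1683 ± 88 (SD, n = 2) and 2344 ± 129 (SD, n = 3). The log2 difference was 0.48 (SE 0.0858, 95% interval 0.29 to 0.66). It did not pass limma's test over all genes (adjusted p = 0.206), though it ranked 5th of 12734 by unadjusted p. Ezhip was added to the PRC2 list with its earlier result on these data known, so its place there is no independent evidence.

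Set against Ezh2 or Kdm6b within each library, Ezhip kept that pattern. Both ratios reuse Ezhip's own values, so they are no separate evidence of its difference. The ratio of Ezhip to Ezh2 was 9.34 and 8.66 in controls and 13.3, 11.5 and 15 after PNMC, without overlap. The ratio of Ezhip to Kdm6b was 181 and 119 in controls and 185, 190 and 220 after PNMC, where control library 1 nearly reached PNMC library 1. Ezhip stood at the percentile 99.8 of mean value among tested genes.

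Beyond the 10 genes, 9 lists of Polycomb-related genes held 107 further names, of which 104 were in the table and 57 were tested. Of these 0 passed at an adjusted p under 0.05 in either direction, and 24 had higher and 33 lower mean log2 values. Higher values made up 42.1% of these genes and 43.1% of all genes. At an unadjusted p under 0.05 there were 2 of the 57, Ezhip and Phc1, where 4.99% of all genes were, so the count was no higher than that share. Groups did not overlap in 4 genes that were higher and 5 that were lower, where 7.97% and 11.9% of all genes were. Cbx7, one of the 4 higher, passed the filter only through PNMC libraries.

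Phc1 had the largest difference in the lower direction among the tested genes of these lists. It encodes a polyhomeotic protein, a polymerising subunit of canonical PRC1. Phc1 was at 18.68 and 21.68 in controls and at 9.388, 12.19 and 11.61 after PNMC, and the highest PNMC value lay well under the lower control. The log2 difference was -0.82 (SE 0.233, 95% interval -1.32 to -0.31), which did not pass limma's test (adjusted p = 0.868). Its paralogue Phc2 was at 8.26 and 7.867 in controls and at 9.999, 12.1 and 10.15 after PNMC, again without overlap but in the other direction (limma adjusted p = 0.993). Phc2 is named after its values were seen. Phc3 was under 1 in every library.

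The remaining canonical PRC1 genes ranged from near the floor to well above it. Scml2 was the highest of them, at 97.11 and 77.54 in controls and at 82.13, 114.6 and 103.9 after PNMC. Scmh1 averaged 15.6 ± 3.78 in controls and 17.12 ± 1.65 after PNMC. Of the CBX proteins that read H3K27me3, Cbx2 was at 24.91 and 22.99 in controls and 24.66, 23.09 and 26.15 after PNMC, while Cbx6 stayed under 1. Cbx7 was at 0 and 0.6171 in controls and at 0.6703, 1.042 and 1.807 after PNMC, too low for a firm direction. It passed the filter only through PNMC libraries 2 and 3, of the group where it was higher. Of the PCGF genes outside the members, Bmi1, the best known of them, was at 99.59 and 96.64 in controls and at 97.64, 121 and 112.9 after PNMC. Pcgf3 averaged 15.45 ± 1.3 (SD, n = 2) and 13.68 ± 2.37 (SD, n = 3). In the 6 tested genes of the canonical list 5 were higher, Cbx7 included, and 1 lower, with a median log2 difference of 0.17. In the PRC1 catalytic and PCGF list 2 were higher and 4 lower, with a median of -0.01. Of all genes tested 43.1% were higher.

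Of the variant PRC1 partners, 22 of 23 genes were tested, 12 higher and 10 lower, with a median of 0.01. Kdm2b, which carries the PCGF1 complex to CpG islands, averaged 34.28 ± 1.38 and 34.56 ± 4.66. Mga, a partner of the PCGF6 complex, was at 7.027 and 5.542 in controls and at 4.535, 4.102 and 5.394 after PNMC, without overlap (log2 difference -0.36, limma adjusted p = 0.993). The deacetylase Hdac2 averaged 17.07 ± 2.87 and 13.38 ± 4.93. Among the PRC2 accessory genes, Mtf2, a Polycomb-like protein, averaged 47.66 ± 11 and 40.73 ± 1.9, and Rbbp4 of the core averaged 28.35 ± 0.214 and 25.16 ± 2.8.

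**Figure D4:**
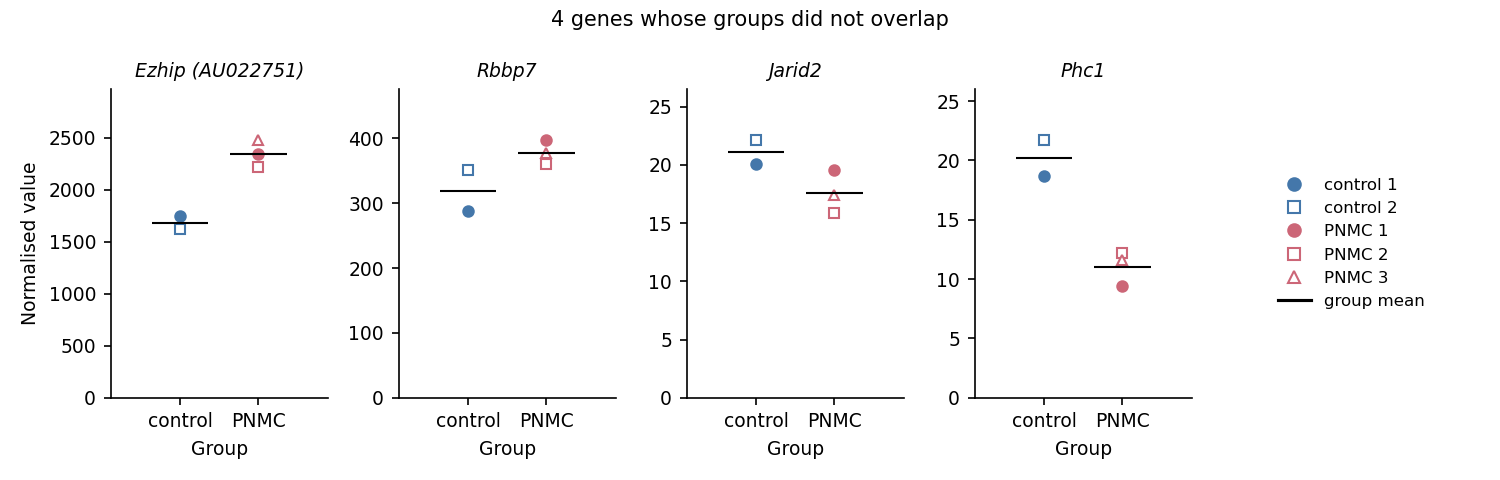
Normalised value by group, on axes from 0, for 4 genes without overlap between groups, chosen for display after their values were seen; points are libraries and black lines are group means. Ezhip and Rbbp7 are higher and Jarid2 and Phc1 lower in every PNMC library; none passed the adjusted test.

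None of the genes that oppose Polycomb marks passed limma's test (lowest adjusted p = 0.993). Of 7 genes tied to removal of ubiquitin from H2A, 1 was higher and 6 were lower, with a median of -0.07. For this list and the next, the share of all tested genes that were higher was 43.1%. Mysm1 averaged 13.81 ± 0.375 in controls and 11.27 ± 2.54 after PNMC, and Usp21 averaged 53.43 ± 6.29 and 61.68 ± 11.4. Among the 5 demethylase and acetyltransferase genes, 1 was higher and 4 lower, with a median of -0.19. The Y-linked relative Uty averaged 3.431 ± 0.691 and 2.101 ± 0.89, and Ep300, which acetylates H3K27, averaged 2.881 ± 0.107 and 1.862 ± 0.906. Both overlapped between groups.

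Most of the listed developmental targets of the complexes were under the filter in these embryos. Of 39 developmental regulators listed as Polycomb targets, 10 were at 0 in every library, where 10000 of all 32285 symbols were. Of the 39, 5 were tested, or 12.8%, where 39.4% of all symbols were. All 5 overlapped between groups, and their median difference was -0.17. Tbx3, a T-box factor, was at 19.61 and 23.31 in controls and at 15.89, 18.39 and 23.23 after PNMC, so PNMC library 3 lay just below the higher control. Gata6, a factor of the primitive endoderm, averaged 1.632 ± 0.472 (SD, n = 2) and 0.9591 ± 0.649 (SD, n = 3). Of 7 imprinted genes that depend on H3K27me3 and are in the table, 3 were tested. Jade1 averaged 18.68 ± 3.28 and 17.1 ± 4.57 and Gab1 1.494 ± 1.46 and 1.148 ± 0.121, while Sfmbt2, Slc38a4, Smoc1 and Xist stayed under 1 in every library.

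**Figure D5:**
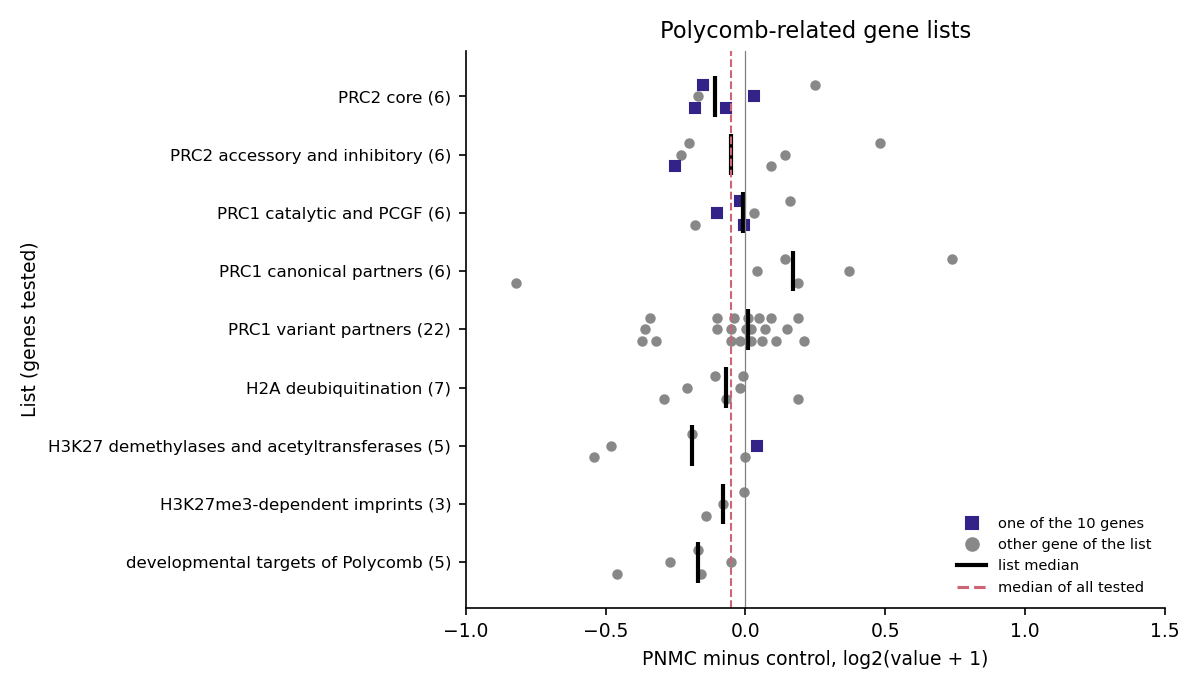
Difference of PNMC minus control on log2(value + 1) for each tested gene of 9 Polycomb-related lists; squares are members, circles other genes, black bars list medians and the dashed line the median of all tested genes (-0.05). List medians lie between -0.19 and 0.17, and the outermost points belong to Phc1 (-0.82) and Cbx7 (0.74). Cbx7 is near the floor and passed the filter only through PNMC libraries.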

How the data were processed

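The authors deposited 1 table of normalised signal per gene symbol and library, with no unit, identifiers or coordinates. Per the submitters' processing notes, the tools were HTSeq, Trimmomatic, DESeq2 1.16.1 and HISAT2 2.0.5, on the build GRCm39. The annotation and the tool that made the values are not named in those notes. Low values showed no common step (at most 0.964% of the genes under 0.5 shared one ratio between 2 libraries), so whole reads and depth could not be recovered, and neither count tests nor counting intervals were computed.

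The filter kept 12734 genes that reached 1 in 2 or more libraries. log2(value + 1) was compared with limma 3.58.1 in R 4.3.3 (mean-variance trend, robust variances, no covariate, Benjamini-Hochberg over all genes, threshold 0.05). This scale understates changes of low genes. Summaries used Python 3.11.15. Alternatives were another pseudocount, filter, scaling and variance model, a replicate block, and each library left out. On 5 datasets simulated for this comparison with 12734 genes, 200 of them changed, limma's calls held 70.4% of 2-fold and 100% of 4-fold changes. The changed genes were drawn only from those of higher mean value, so these shares do not cover low genes. Noise was normal, with the variances that limma had fitted. With few changed genes the share would be lower.

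The members and lists were chosen with earlier results of these data known. Of each list, the 2 tested genes outside the members with the smallest p are named, and Ezhip; other names were added after their values were seen. Listed genes that are not reported here, one of them named by that rule, were left out of the list counts. GENCODE M21 and RefSeq, both on GRCm38, gave symbols, transcript lengths, shared sequence and promoters.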

Additional observations from a re-analysis of the deposited data

How the results depend on the processing

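No member passed at an adjusted p under 0.05 under any of the 13 alternatives. The count over all genes stayed at 0 except without PNMC library 1, where it was 1. The members' median was 0.02 after scaling to the median and -0.02 under the replicate block, and ran from -0.16 to -0.02 with 1 library left out. PNMC library 3 has no control of the same number, so the block drew nothing from it. The block's differences equal those without that library, so these alternatives are not separate checks of a difference. Signs changed for differences that had not passed. After scaling to the median, the difference was 0.02 for Ezh2, 0.08 for Pcgf1 and 0.06 for Pcgf6. Under the replicate block it was 0.01 for Pcgf1, 0.07 for Pcgf6 and 0.07 for Jade1. For Gab1 it was 0.04 with a pseudocount of 0.1 and 0.04 under quantile normalisation. The causes were not tested.
With 1 library left out, the sign changed within ranges of -0.42 to 0.06 for Ezh1, -0.33 to 0.02 for Eed, -0.14 to 0.19 for Suz12, -0.14 to 0.13 for Pcgf1, -0.24 to 0.20 for Pcgf6, -0.19 to 0.27 for Kdm6b, -0.44 to 0.03 for Mtf2, -0.31 to 0.07 for Jade1 and -0.72 to 0.55 for Gab1. Jarid2 ran from -0.32 to -0.17, Rnf2 from -0.17 to -0.01 and Ezhip from 0.37 to 0.56 over all alternatives, without a change of sign. Other listed genes, such as Rbbp7 and Phc1, kept their sign too. The limma adjusted p of Ezhip ran from 0.146, after scaling to the median, to 1, without PNMC library 3.
Numbers shared by both groups do not pair the libraries by any label. Deviations of same-numbered libraries correlated at -0.0585 and -0.0433 across 12734 genes, which are not independent replicates. With 2 controls, their deviations mirror each other, so the other control gave 0.0585 and 0.0433 by construction. The block, which draws nothing from PNMC library 3, gave 0 genes at the adjusted threshold. Neither result settles whether libraries were paired. Depth is unknown, so no limit on low values can be given.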
